A study of Mus musculus with 6 samples.

Results

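Imprinted genes are genes of which a cell uses the copy from 1 parent and keeps the other silent, and 49 of them were followed here in mouse cells with and without HOXB4. A gene counted as measured when the array had a feature, a set of probes summarised to 1 value, that the platform annotation assigned to that gene alone, and where a gene had several such features the brightest stood for it. By this rule 41 of the 49 genes were measured, among 30701 genes in all. For H19, Rtl1, Meg3, Rian, Mirg and Snrpn the feature also listed other genes, so these 6 were not counted as members, and Slc22a3 and Zrsr1 had no listed feature. The cells were embryonic stem cells of the line iRunx that had been grown for 4 days as embryoid bodies and then sorted for Flk1 and against PDGFRα, which gives a fraction of early mesoderm that can give endothelium and blood. The control group was 3 arrays of iRunx cells without HOXB4, and the HOXB4 group was 3 arrays of iRunx cells that expressed HOXB4, a homeodomain protein, from a retrovirus carrying tdTomato. Both groups share the iRunx line, the day and the sort. The series text calls the 3 replicates independent experiments. The labels do not state whether control cells carried an empty vector or what the line's name stands for.

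Imprinting rests on DNA methylation laid down in egg or sperm and kept through the divisions of the embryo at imprinting control regions. Genes lie in clusters, and in many of them a long noncoding RNA made from 1 parental copy silences its neighbours on the same chromosome. Many paternally expressed genes promote growth of the fetus and placenta and many maternally expressed ones restrain it, with Igf2 and its decoy receptor Igf2r as the classic pair. Arrays of this kind measure the RNA of both alleles together, so a value here says nothing about which allele was read.

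In limma none of the 41 genes reached an adjusted p (Benjamini-Hochberg) of 0.05, where 0 of all 30701 genes passed (0.0%). The lowest adjusted p among the 41 was 0.605. Slc38a4, Phlda2, Cdkn1c, Dlk1 and the 3 genes of the Peg3 locus had lower means in HOXB4 cells, while Grb10, Ppp1r9a, Magel2, Ddc and Gab1 had higher means. These 12 were the members whose groups differed by more than 0.5 on the log2 scale, 29.3% of the 41 against 4.73% of all genes. Of the 34 members whose mean level lay above that of the median gene, these 12 were 35.3%, against 8.66% of all genes above that level. Among these 12 the groups overlapped for all but Dlk1, Slc38a4 and Cdkn1c, and the list was chosen with earlier results of these data known. Values on this scale are log2 expression summaries, so a difference of 1 is a 2-fold change.

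At an unadjusted p below 0.05 there were 4 members (9.76%, against 8.19% of all genes), 3 lower and 1 higher, beside 5.95% of all genes lower and 2.23% higher. Dlk1, Slc38a4 and Cdkn1c were the 3 lower ones and Impact the higher one, with unadjusted p of 0.0032, 0.0151, 0.0205 and 0.0320 in limma's test over all genes. In the same 4 genes the groups had no overlap, 3 below (7.32% of members, 10.2% of all genes) and 1 above (2.44% of members, 3.24% of all genes). Those shares are near the background and are not a result about imprinted genes. Over all 41 the differences were above 0 for 24 members and below 0 for 17, with a median of 0.04, where the median of all genes was -0.04 and 40.0% of genes lay above 0 and 60.0% below. For 21 members the groups differed by less than 0.2.

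HOXB4 2 stood apart from the other HOXB4 arrays for many of these genes and lay among the controls. In correlations between arrays, HOXB4 2 was closest to control 3 (0.9975). Its correlations with HOXB4 1 and 3 (0.9908 and 0.9927) were lower than with any control. Control 2 in turn correlated slightly more with HOXB4 1 and 3 (0.9946 and 0.995) than with controls 1 and 3 (0.9944 and 0.9943). All these correlations were high, and the cause of their order was not tested. Without HOXB4 2, limma called 46 genes (0.15%), of which 2 were members, Slc38a4 and Phlda2, both lower. In that comparison of 2 arrays with 3, HOXB4 values lay wholly below the controls for 10 members (24.4%, against 21.4% of all genes) and wholly above them for another 10 (24.4%, against 10.5%). For the members with larger differences the value without HOXB4 2 is given too, and it rests on 2 HOXB4 arrays. HOXB4 2 was singled out because its values lay among the controls, so leaving it out tends to widen the differences. With control 2 left out in its place, limma called 0 genes. The calls and counts without HOXB4 2 describe the arrays and are no independent support.

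**Figure D1:**
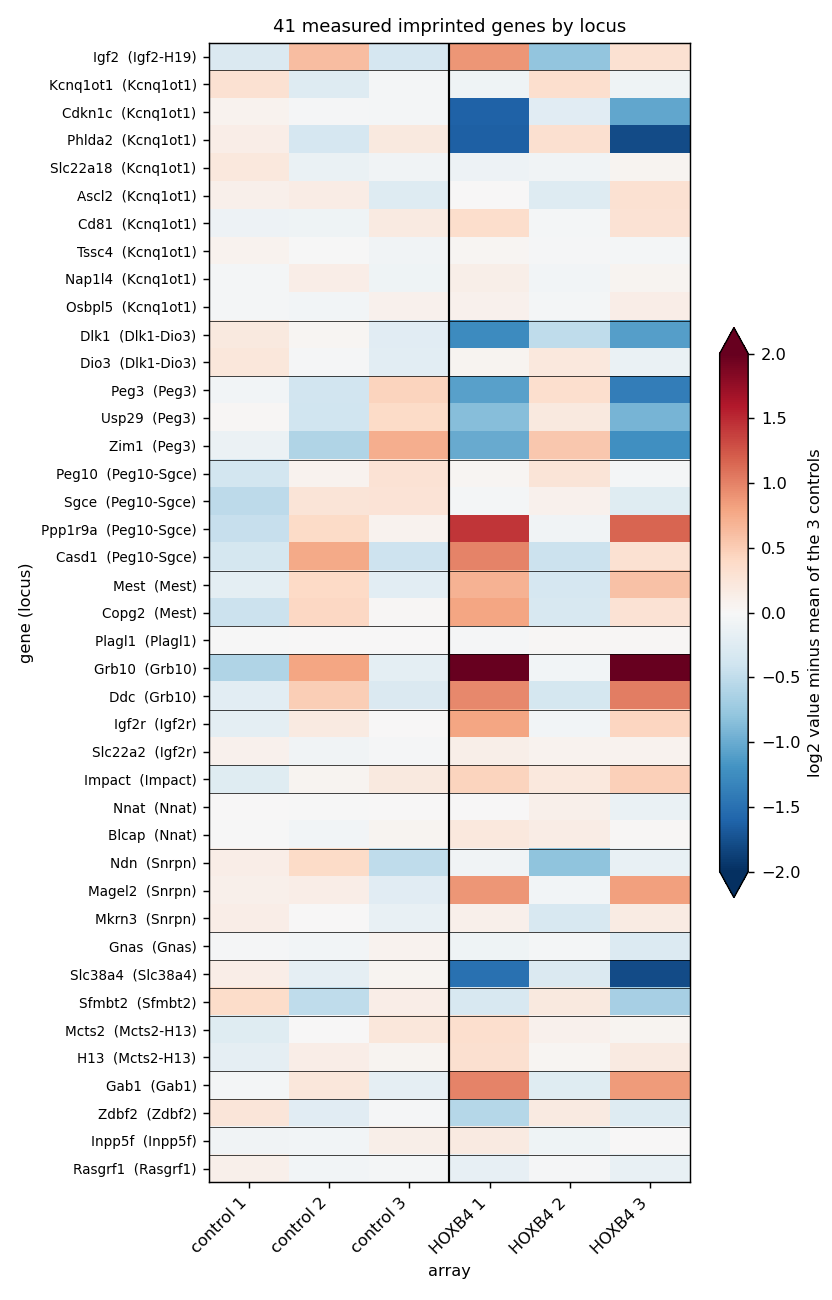
Log2 value minus the mean of the 3 controls (colour, clipped at -2 and 2) for each of the 41 measured imprinted genes (rows, grouped by locus) in each of the 6 arrays (columns). HOXB4 1 and HOXB4 3 are blue for Cdkn1c, Phlda2, Slc38a4 and the Peg3 locus and red for Grb10, Ddc, Ppp1r9a and Gab1, while HOXB4 2 is close to the controls in most of these rows.

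The feature for Hoxb4, which also lists Mir10a, stood between 4.24 and 4.96 in all 6 arrays. Whether its probes read the introduced HOXB4 was not tested. Kdr, which encodes the sorting marker Flk1, stood between 13.68 and 14.33. The feature for Pdgfra, which also lists Mir7025, was 6.47 to 6.89 in controls and was highest, at 7.15, in HOXB4 2, with 5.95 and 6.04 in HOXB4 1 and 3. The median gene lay between 5.10 and 5.22 in each array and the array's background features had medians of 3.06 to 3.15. In bulk samples of this kind, fewer cells of a type and less RNA per cell cannot be told apart.

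The Kcnq1ot1 locus on chromosome 7 holds genes read from the maternal copy, which are silenced on the paternal copy, where the noncoding RNA Kcnq1ot1 is made. Of its 9 measured genes, Cdkn1c and Phlda2 had lower means in HOXB4 cells and the other 7 differed by less than 0.2. Cdkn1c encodes p57, an inhibitor of cyclin-dependent kinases that stops the cell cycle. Cdkn1c measured 8.53, 8.43 and 8.42 without HOXB4 and 6.84, 8.23 and 7.42 across the HOXB4 arrays. The controls were nearly equal, all 3 HOXB4 values lay below them, and HOXB4 2 was only slightly lower. The difference was -0.96 (SE 0.32, limma adjusted p = 0.605), which is 1.95-fold, and it was -1.33 without HOXB4 2 and -0.63 without HOXB4 1.

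Phlda2, a pleckstrin homology protein that limits the growth of the placenta, stood at 18.04, 17.57 and 18.11 in controls and at 16.27, 18.22 and 16.12 across the HOXB4 arrays. HOXB4 2 was above every control and the other HOXB4 arrays were below every control, so the groups overlapped. The difference was -1.04 (SE 0.54, limma adjusted p = 0.639). Without HOXB4 2 it was -1.71 (SE 0.18), and limma called it with an adjusted p of 0.0488. Of the 41 genes, Phlda2 and Slc38a4 alone passed in that setting.

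Kcnq1ot1 itself stood at 7.73, 7.16 and 7.37 in controls and 7.33, 7.76 and 7.34 in HOXB4 cells, a difference of 0.05 (SE 0.18) whose sign turned to -0.09 without HOXB4 2. HOXB4 2 was the highest array for both Kcnq1ot1 and Phlda2, while control 1 was the highest for Cdkn1c. The lowest array was control 2 for Kcnq1ot1, HOXB4 3 for Phlda2 and HOXB4 1 for Cdkn1c. Whether Kcnq1ot1 has a part in the differences of its neighbours was not tested. Slc22a18, a membrane transporter, was at 5.47, 5.13 and 5.19 in controls and 5.16, 5.20 and 5.33 in HOXB4 cells. Ascl2, a basic helix-loop-helix factor of trophoblast, was at 4.67, 4.73 and 4.32 against 4.58, 4.32 and 4.87, below the median gene in every array. The tetraspanin gene Cd81 was at 15.40, 15.41 and 15.66 against 15.84, 15.45 and 15.78, with overlap between the groups and a difference of 0.20 (SE 0.14), or 0.32 without HOXB4 2. Tssc4, Nap1l4 and Osbpl5, for which imprinting is reported in placenta, had differences near 0. Tssc4 was at 6.70, 6.62 and 6.55 in controls and 6.66, 6.60 and 6.58 in HOXB4 cells. Nap1l4, a nucleosome assembly protein, was at 13.64, 13.81 and 13.59 against 13.79, 13.62 and 13.72. Osbpl5, an oxysterol-binding protein, was at 5.41, 5.40 and 5.54 against 5.54, 5.41 and 5.58. For these 3 genes the ranges of the groups overlapped and the differences were -0.01, 0.04 and 0.06 (SE 0.09, 0.10 and 0.09).

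The 250 bases before the annotated start of Phlda2 are shown because it is 1 of the 2 genes called without HOXB4 2, and those of Dlk1 because it had the lowest unadjusted p. They come from RefSeq and GRCm38.p6, on the minus strand at chr7:143502525-143502774 and on the plus strand at chr12:109452573-109452822. CG dinucleotides, the sites at which DNA can be methylated, are in capitals. Phlda2 has 21 of them and Dlk1 has 8. Methylation was not measured, and no imprint is read from either stretch.
Phlda2: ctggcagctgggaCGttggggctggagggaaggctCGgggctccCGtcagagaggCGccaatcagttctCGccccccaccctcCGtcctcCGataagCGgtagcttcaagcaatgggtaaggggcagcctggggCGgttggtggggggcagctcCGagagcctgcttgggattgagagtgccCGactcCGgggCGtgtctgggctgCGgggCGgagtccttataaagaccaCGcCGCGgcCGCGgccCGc
Dlk1: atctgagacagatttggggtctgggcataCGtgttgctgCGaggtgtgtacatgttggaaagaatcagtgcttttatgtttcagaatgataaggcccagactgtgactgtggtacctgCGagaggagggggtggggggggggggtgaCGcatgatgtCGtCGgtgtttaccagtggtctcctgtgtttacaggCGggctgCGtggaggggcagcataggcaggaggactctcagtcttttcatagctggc

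The Dlk1-Dio3 locus on chromosome 12 makes the proteins DLK1, RTL1 and DIO3 from the paternal copy and a chain of noncoding RNAs, Meg3, Rian and Mirg, from the maternal copy. Dlk1, a transmembrane protein related to the ligands of Notch, stood at 6.56, 6.39 and 6.13 in the 3 controls and at 5.11, 5.85 and 5.27 across the HOXB4 arrays. All 3 HOXB4 arrays were below all controls, HOXB4 2 included. The difference was -0.95 (SE 0.21, limma adjusted p = 0.605), which is 1.93-fold. It ran from -1.17 to -0.80 over the 6 fits that each left out 1 array. Dio3, a deiodinase that inactivates thyroid hormone, stood at 3.47, 3.21 and 3.03 in controls and 3.29, 3.44 and 3.11 in HOXB4 cells. These values are close to the medians of the background features, so no direction is read from Dio3.

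The features of the maternal noncoding RNAs list small RNA genes as well, so they are given as values without a test. The feature of Meg3, which lists 4 genes, stood at 7.51, 7.97 and 8.84 in controls and 7.98, 8.73 and 8.03 in HOXB4 cells, and the groups overlapped. The feature of Rian, which lists 6 genes, stood at 11.10, 11.69 and 11.22 against 10.44, 11.27 and 10.71. For Rian, HOXB4 1 and 3 lay below every control and HOXB4 2 between controls 3 and 2, with means 0.53 apart. The feature of Mirg, which lists 10 genes, stood at 6.76, 7.20 and 7.25 against 6.53, 7.34 and 6.84. The groups overlapped there too. The Rtl1 feature, which also lists Mir3071, stood at 3.64 to 3.87 in controls and 3.59 to 3.60 in HOXB4 cells, near background.

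Of 58 microRNA genes listed for imprinted loci, 43 had a feature of their own, and 39 of these lie between Dlk1 and Dio3. Whether such a feature read the mature microRNA, its precursor or the host transcript was not tested. None of the 43 passed over all genes in limma's test, and at an unadjusted p below 0.05 there were 3 lower and 2 higher, beside 5.95% and 2.23% of all genes. Such small counts are not read as a result about these microRNA genes, and the values that follow are a description. Mir376b was at 4.91, 4.94 and 5.21 in controls and 4.58, 4.56 and 4.09 in HOXB4 cells, and Mir882 at 4.82, 5.06 and 4.37 against 3.73, 4.11 and 4.14. Mir665 was at 3.11, 3.34 and 3.29 against 3.85, 3.48 and 3.72, and Mir540 at 4.37, 4.61 and 4.68 against 4.77, 5.06 and 4.79. These 4 had the lowest unadjusted p of the list, their groups did not overlap, and each had an adjusted p of 0.605. All 4 genes lie between Dlk1 and Dio3, with group means below the median gene. The control values of Mir665 are close to the medians of the background features, so no direction is read from it.

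The mature sequences of these microRNAs are shown to compare their seeds, the bases that pair with targets. They are from RefSeq, GRCm38.p6, with the seed (bases 2 to 8) in capitals. Among them miR-376b-5p has the seed of miR-376c-5p, and no seed is shared between different ones of the 4 genes. The 2 arms of Mir675, the microRNA made from H19, are given with them.
mmu-miR-376b-5p: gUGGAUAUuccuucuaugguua
mmu-miR-376c-5p: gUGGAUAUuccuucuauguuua
mmu-miR-376b-3p: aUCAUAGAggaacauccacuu
mmu-miR-882: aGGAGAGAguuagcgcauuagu
mmu-miR-665-5p: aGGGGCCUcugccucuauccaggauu
mmu-miR-665-3p: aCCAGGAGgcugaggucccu
mmu-miR-540-5p: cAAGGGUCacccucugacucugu
mmu-miR-540-3p: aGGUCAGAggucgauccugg
mmu-miR-675-5p: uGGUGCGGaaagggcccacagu
mmu-miR-675-3p: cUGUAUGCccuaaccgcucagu

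In the Peg3 locus of chromosome 7, the zinc finger gene Peg3 and the ubiquitin peptidase gene Usp29 are read from the paternal copy and Zim1, another zinc finger gene, from the maternal copy. All 3 had lower means in HOXB4 cells, and all 3 ranked the arrays alike. Peg3 stood at 15.09, 14.78 and 15.59 in the 3 controls and at 14.06, 15.49 and 13.77 across the HOXB4 arrays. Usp29 stood at 6.97, 6.55 and 7.33 against 6.09, 7.14 and 6.02. Zim1 stood at 9.31, 8.82 and 10.16 against 8.42, 9.96 and 8.21. In each of the 3 genes control 3 was highest, HOXB4 2 was second to it, control 2 was the lowest control, and HOXB4 1 and 3 lay below every control.

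The differences of Peg3, Usp29 and Zim1 were -0.71, -0.53 and -0.57 (SE 0.45, 0.34 and 0.53, limma adjusted p = 0.678, 0.675 and 0.767). Without HOXB4 2 they were -1.23, -0.90 and -1.12, still short of the threshold (limma adjusted p = 0.142, 0.191 and 0.270). Genes read from opposite parental copies lay on the same side here. Peg3os, a noncoding transcript of this locus that was not in the list and was looked up after its values were seen, stood at 11.62, 11.21 and 11.46 in controls and at 10.04, 11.45 and 9.73 in HOXB4 cells. The groups of Peg3os overlapped and it was not called with 6 arrays (difference -1.03, SE 0.43, limma adjusted p = 0.605), but was without HOXB4 2 (difference -1.55, limma adjusted p = 0.0482).

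Peg3 and Usp29 are transcribed away from each other. The stretch between their annotated starts, shown because both genes ranked the arrays alike, is 163 bases long and lies at chr7:6730420-6730582 of GRCm38.p6. It is given with the 250 bases before the start of Zim1, on the minus strand at chr7:6696433-6696682, both from RefSeq and with CG in capitals. The shared stretch, on the plus strand, has 5 CG dinucleotides and the Zim1 stretch 14.
Peg3-Usp29: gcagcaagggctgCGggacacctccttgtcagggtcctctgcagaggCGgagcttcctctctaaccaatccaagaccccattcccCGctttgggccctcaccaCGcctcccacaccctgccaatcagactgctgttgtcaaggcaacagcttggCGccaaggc
Zim1: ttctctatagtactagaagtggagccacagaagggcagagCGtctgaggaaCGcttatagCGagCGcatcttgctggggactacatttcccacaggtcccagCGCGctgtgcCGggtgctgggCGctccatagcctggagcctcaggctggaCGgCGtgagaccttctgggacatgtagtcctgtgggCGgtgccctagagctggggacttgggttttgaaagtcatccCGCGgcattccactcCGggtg

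**Figure D2:**
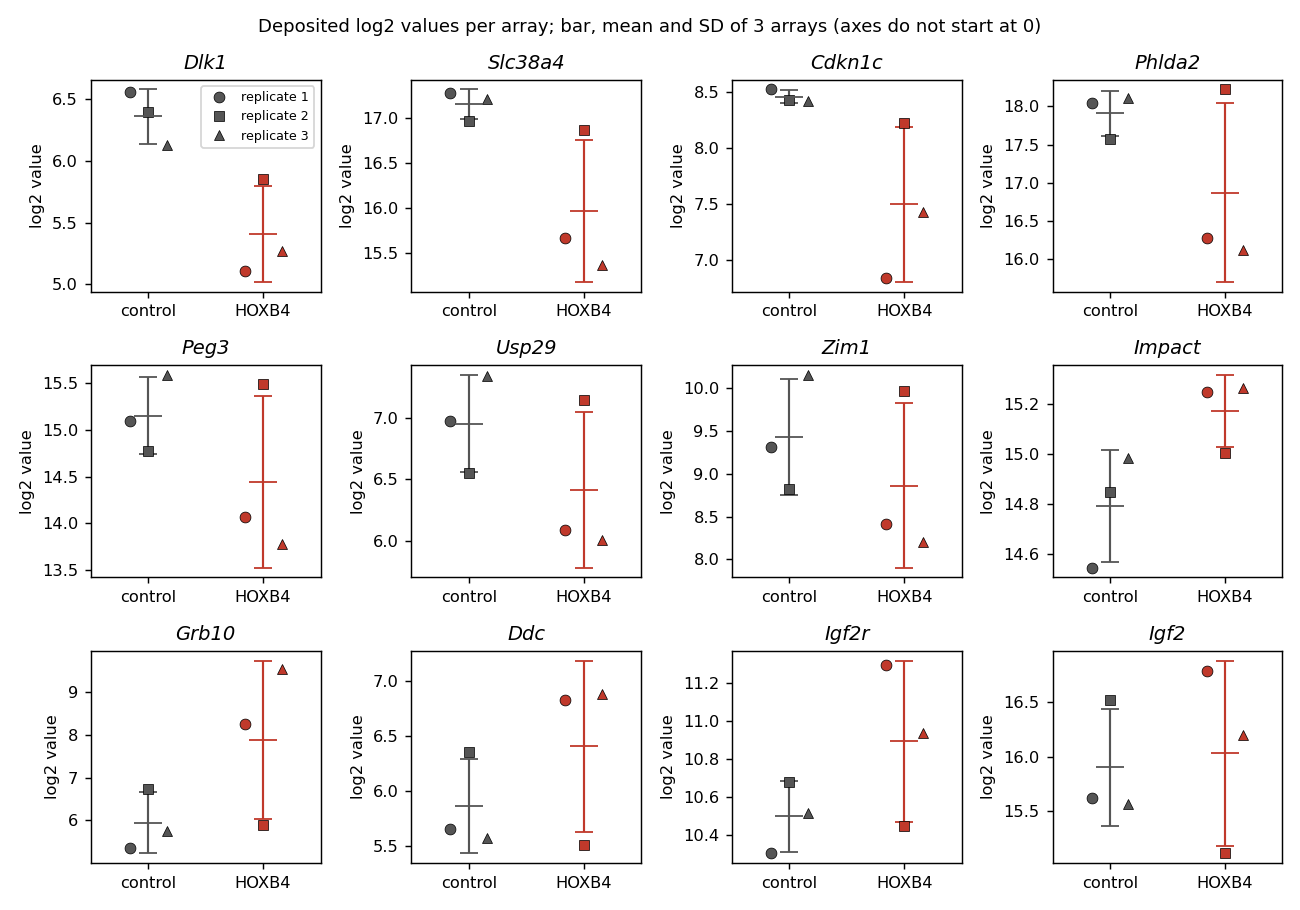
Deposited log2 values (vertical axis) of 12 imprinted genes in the control and HOXB4 groups, with a symbol for each replicate and a bar for the mean and SD of 3 arrays. HOXB4 2 (red square) lies among or beside the controls for Phlda2, Peg3, Usp29, Zim1, Grb10, Ddc and Igf2r, while all HOXB4 values of Dlk1, Slc38a4 and Cdkn1c lie below the controls and those of Impact above them.

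Slc38a4 is a paternally expressed amino acid transporter that is abundant in placenta, and it had the largest negative difference of the 41. It stood at 17.28, 16.97 and 17.21 in controls and at 15.66, 16.86 and 15.37 across the HOXB4 arrays. HOXB4 2 lay just under the lowest control and the other HOXB4 arrays far below. The difference was -1.19 (SE 0.37, limma adjusted p = 0.605), which is 2.28-fold, and without HOXB4 2 it was -1.64 (SE 0.15) and was called with an adjusted p of 0.0310. Slc38a4, Sfmbt2 and Gab1 belong to a class whose imprint rests on histone marks of the egg in place of DNA methylation, and they did not lie on the same side. Sfmbt2, a Polycomb-related gene, differed by -0.26 (SE 0.29), or -0.49 without HOXB4 2. Gab1, a docking protein of receptor tyrosine kinases, stood at 11.21, 11.48 and 11.07 in controls and 12.24, 11.005 and 12.11 in HOXB4 cells, with HOXB4 2 below the controls and the other HOXB4 arrays above them. Its difference was 0.53 (SE 0.32, limma adjusted p = 0.665), or 0.92 without HOXB4 2 (adjusted p = 0.107).

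Impact, a paternally expressed inhibitor of the stress kinase GCN2, was the member with all HOXB4 values above all controls. It stood at 14.55, 14.85 and 14.98 in controls and 15.24, 15.00 and 15.26 in HOXB4 cells. The gap between the highest control and HOXB4 2 was small. The difference was 0.38 (SE 0.14, limma adjusted p = 0.605), which is 1.30-fold.

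Grb10 encodes an adaptor that restrains signalling of the insulin and IGF receptors and is maternally expressed outside the brain. It had the largest difference of the 41, 1.93 (SE 0.88, limma adjusted p = 0.611), which is 3.82-fold. Its values were 5.35, 6.74 and 5.75 in controls and 8.24, 5.89 and 9.52 across the HOXB4 arrays. HOXB4 2 lay inside the range of the controls, and the difference was 2.93 (limma adjusted p = 0.119) without it. Its neighbour Ddc, an aromatic amino acid decarboxylase with imprinting reported in heart, stood at 5.66, 6.36 and 5.58 against 6.83, 5.51 and 6.89. As for Grb10, control 2 was the highest control, HOXB4 1 and 3 were above every control, and HOXB4 2 was not. Ddc differed by 0.54 (SE 0.40, limma adjusted p = 0.710), or 1.00 without HOXB4 2.

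The Peg10-Sgce locus of chromosome 6 held differences of both signs. Peg10, a retrotransposon-derived gene needed for the placenta, differed by 0.09 (SE 0.18) and its divergent partner Sgce, epsilon sarcoglycan, by -0.07 (SE 0.23). Ppp1r9a, which encodes the actin-binding protein neurabin, stood at 6.21, 7.06 and 6.75 in controls and 8.10, 6.61 and 7.84 in HOXB4 cells. HOXB4 1 and 3 were above every control and HOXB4 2 was within their range, for a difference of 0.84 (SE 0.41, limma adjusted p = 0.624), or 1.30 without HOXB4 2. Casd1, at the end of the locus, differed by 0.29 (SE 0.43), or 0.65 without HOXB4 2 and -0.06 without HOXB4 1. In the Mest locus, also on chromosome 6, the paternally expressed mesoderm gene Mest differed by 0.31 (SE 0.30) and the coatomer gene Copg2 by 0.25 (SE 0.32). Mest and Copg2 differed by 0.64 and 0.54 without HOXB4 2 and by 0.13 and -0.01 without HOXB4 1.

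Igf2, the paternally expressed fetal growth factor, stood at 15.62, 16.53 and 15.57 in controls and 16.79, 15.11 and 16.20 in HOXB4 cells. The lowest and the highest of the 6 values were both HOXB4 arrays. The difference of 0.13 (SE 0.45) turned sign with the array left out: it was 0.59 without HOXB4 2 and -0.25 without HOXB4 1. H19, the noncoding RNA read from the maternal copy of the same locus, shares its feature with Mir675, the microRNA it hosts. That feature stood at 4.68, 4.41 and 4.33 in controls and 4.24, 4.27 and 4.32 in HOXB4 cells, below the median gene in every array. The HOXB4 values lay below the controls by a mean of 0.19, with control 3 and HOXB4 3 almost equal.

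Igf2r, the maternally expressed receptor that clears IGF2, stood at 10.31, 10.68 and 10.52 in controls and 11.29, 10.45 and 10.94 in HOXB4 cells. HOXB4 1 and 3 were above every control and HOXB4 2 was within their range. The difference was 0.39 (SE 0.22, limma adjusted p = 0.644), or 0.61 without HOXB4 2. Slc22a2, an organic cation transporter beside Igf2r, differed by 0.09 (SE 0.09) at a level below the median gene in all 6 arrays.

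In the Snrpn locus of chromosome 7, the region lost in Prader-Willi syndrome, the paternally expressed MAGE family genes differed in sign. Magel2 stood at 5.17, 5.19 and 4.84 in controls and 5.95, 5.02 and 5.89 in HOXB4 cells, with HOXB4 2 within the controls. Ndn stood at 10.44, 10.68 and 9.79 against 10.24, 9.51 and 10.16, with HOXB4 2 lowest. Their differences were 0.55 (SE 0.26, limma adjusted p = 0.618) and -0.34 (SE 0.28, adjusted p = 0.736). Without HOXB4 2 they were 0.85 (limma adjusted p = 0.110), with both HOXB4 values of Magel2 above the controls, and -0.11. Mkrn3, a RING finger gene, differed by -0.02 (SE 0.15), or 0.13 without HOXB4 2. The feature listing Snrpn and Snurf, 2 proteins read from 1 transcript, stood at 9.11, 9.31 and 9.25 in controls and 9.43, 9.54 and 9.83 in HOXB4 cells, all 3 HOXB4 values above the controls and 0.38 apart in mean.

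The remaining members differed by less than 0.3. H13, a signal peptide peptidase, stood at 11.11, 11.42 and 11.33 in controls and 11.61, 11.33 and 11.47 in HOXB4 cells, and Mcts2, which lies inside it, at 9.35, 9.60 and 9.82 against 9.93, 9.68 and 9.65. Blcap stood at 5.91, 5.88 and 5.99 against 6.13, 6.07 and 5.95, and its neighbour Nnat differed by -0.01 (SE 0.09) at a level below the median gene. Gnas, the stimulatory G protein alpha subunit, stood at 8.98, 8.94 and 9.06 against 8.91, 8.96 and 8.72. The groups overlapped for each of these genes, with differences of 0.19, 0.16, 0.13 and -0.13 for H13, Mcts2, Blcap and Gnas. Rasgrf1, an exchange factor for Ras, stood at 4.30, 4.14 and 4.16 against 4.03, 4.17 and 4.06, below the median gene. Zdbf2 differed by -0.21 (SE 0.21), or -0.41 without HOXB4 2, Inpp5f by 0.04 (SE 0.11) and the zinc finger factor gene Plagl1 by 0.01 (SE 0.08), Plagl1 at 3.99 to 4.04 in all 6 arrays.

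By the parental copy known to be expressed, the members did not separate. For some members that copy is the one reported in placenta or heart, and which copy these cells used was not measured. The 22 paternally expressed genes had 11 differences above 0 and 11 below, with a median of -0.0002 and a range from -1.19 to 0.55. The 14 maternally expressed genes had 9 above and 5 below, with a median of 0.05 and a range from -1.04 to 1.93. Without HOXB4 2 the medians were -0.05 and 0.11. The 5 genes whose expressed copy depends on the transcript or is not settled had a median of 0.13. The 7 members marked as imprinted by reports in placenta had 6 differences above 0, from -0.01 to 0.84, and a median of 0.09. That mark does not cover every gene tied to placenta: Phlda2 (-1.04) and Slc38a4 (-1.19) carry no such mark.

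**Figure D3:**
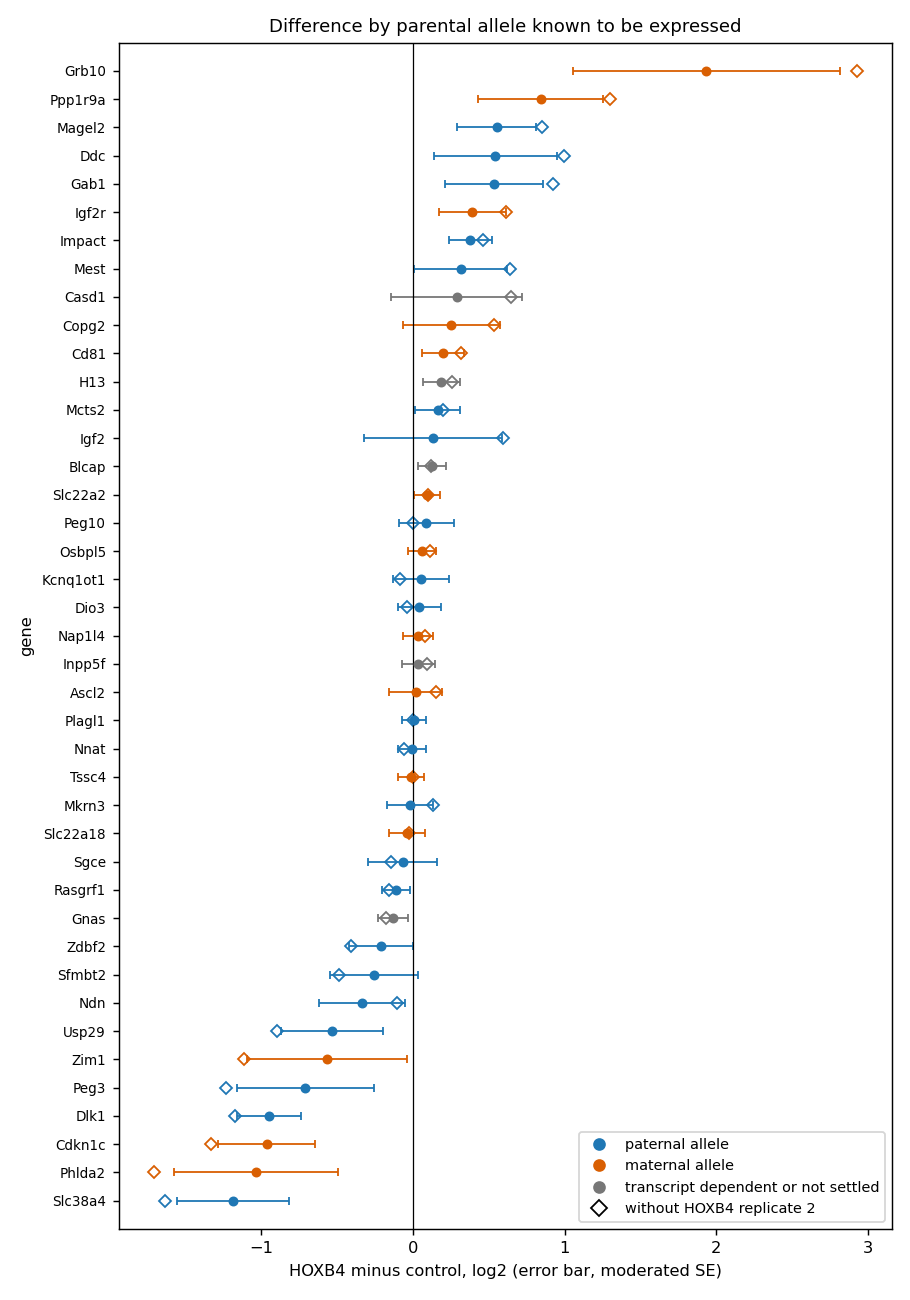
HOXB4 minus control on the log2 scale (horizontal axis, error bar the moderated SE) for the 41 genes ordered by it, coloured by the parental allele known to be expressed; open diamonds are the values without HOXB4 replicate 2. Paternal and maternal genes stand at both ends, from Slc38a4 at -1.19 to Grb10 at 1.93, and the diamonds of most genes with large differences lie farther from 0.

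Imprints are kept by a set of DNA methylation and chromatin factors. Of 19 measured maintenance and establishment factors, 1 was higher and 1 lower at an unadjusted p below 0.05 (2.23% and 5.95% of all genes were), none passed over all genes, and their mean level was 9.0 to 9.08 in all 6 arrays. Zfp57, the zinc finger protein that binds methylated imprinting control regions, stood at 7.57, 8.49 and 8.53 in controls and 9.32, 8.54 and 9.43 in HOXB4 cells. HOXB4 2 was barely above control 3 and the other HOXB4 arrays were well above it, for a difference of 0.90 (SE 0.33, limma adjusted p = 0.605). Eed, a subunit of Polycomb complex PRC2, stood at 11.94, 11.73 and 11.70 against 11.44, 11.66 and 11.41, a difference of -0.28 (SE 0.11). Mbd3 and Uhrf1, the latter needed to copy methylation after replication, differed by -0.22 (SE 0.11) and -0.16 (SE 0.10).

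Of the 16 measured genes of the IGF axis, 1 was lower at an unadjusted p below 0.05 (5.95% of all genes were) and none passed over all genes. The list had 8 differences above 0 and 8 below, from -1.08 to 0.82, with a median of 0.02, and the 4 genes with the lowest p were all on the lower side. The lower one was Igfbp4, an IGF binding protein, at 11.12, 10.58 and 10.91 in controls and 9.92, 10.44 and 9.11 in HOXB4 cells (difference -1.04, SE 0.33, limma adjusted p = 0.605). Irs1, a substrate of the insulin and IGF receptors, stood at 7.37, 6.89 and 7.43 against 5.37, 7.46 and 5.64, with HOXB4 2 again level with the controls (difference -1.08, SE 0.53). Igfbp6 and Igfbp5 differed by -0.14 (SE 0.09) and -0.33 (SE 0.22).

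Of 41 further imprinted genes with a feature of their own, 24 differed above 0 and 17 below, with a median of 0.06, and 3 were lower and 0 higher at an unadjusted p below 0.05, beside 5.95% and 2.23% of all genes. Counts without overlap were small and are not read as a result. The HOXB4 values lay wholly above the controls for 3 of these genes (3.24% of all genes did) and wholly below for another 3 (10.2%). Those with the lower p were Ano1, a chloride channel, at -0.39 (SE 0.10), Commd1 at -0.27 (SE 0.10) and Rhobtb3 at -0.27 (SE 0.11), all 3 below the controls. Ano1 stood at 6.08, 6.19 and 5.94 in controls and 5.72, 5.61 and 5.70 in HOXB4 cells, and here HOXB4 2 was the lowest. Jade1, of the class with histone-based imprints, stood at 9.16, 10.04 and 9.16 against 10.56, 9.50 and 10.93, a difference of 0.88 (SE 0.41).

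Markers of other cell types differed between arrays in related orders. Mean levels of 11 trophoblast markers were 8.23, 7.77 and 8.11 in controls and 6.75, 8.08 and 6.90 across the HOXB4 arrays, with 9 of the 11 below 0. Their low arrays were the low arrays of Phlda2, Slc38a4 and the Peg3 locus. Cdx2, a transcription factor listed here as a trophoblast marker, had the lowest p of the list. It stood at 9.89, 9.32 and 8.91 in controls and 6.91, 8.73 and 7.35 in HOXB4 cells (difference -1.71, SE 0.48, unadjusted p = 0.00989 in limma). Hand1, Krt18, Krt8 and Tfap2c differed by -3.22, -1.66, -1.33 and -0.43 (SE 1.06, 0.86, 0.72 and 0.22). Eomes stood between 10.45 and 13.03 and differed by -0.25 (SE 0.64). Elf5, Tpbpa, Syna, Psg17 and Krt7 stood below the median gene in every array, with differences of 0.01, 0.09, -0.01, -0.12 and -0.10. The means of the trophoblast list thus followed mainly Hand1, Cdx2, Krt18 and Krt8. Whether trophoblast cells were present, or whether the sorted mesoderm itself made these RNAs, was not tested. Means of the 9 cardiac and mesenchymal markers were 7.98, 7.56 and 7.51 in controls and 6.51, 7.28 and 6.43 in HOXB4 cells, with 8 of 9 below 0. Of these 9, 5 were lower at an unadjusted p below 0.05 in limma (5.95% of all genes were). The same 5 lay wholly below the controls (10.2% of all genes did), HOXB4 2 included, and none passed over all genes. Means of the 5 primitive erythroid markers were 7.74, 6.85 and 8.07 against 6.74, 8.04 and 6.50, all 5 below 0. The groups overlapped for each of these 5, and their lowest unadjusted p was 0.20 in limma. Hbb-bh1 had the largest difference of the 5, -1.15 (SE 1.13). Of all genes 60.0% lay below 0, and markers of 1 cell type can vary together, so the counts below 0 in these lists are a description.

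In contrast, means of the 10 endothelial markers were 8.84, 10.25 and 8.75 in controls and 11.12, 8.55 and 9.92 in HOXB4 cells. Control 2 and HOXB4 1 and 3 were the high arrays there, as they were for Igf2, Grb10, Ddc, Mest and Igf2r. All 10 endothelial differences lay above 0, as did 40.0% of all genes, but the groups overlapped for each of the 10. Fli1 had the lowest unadjusted p, 0.156 in limma (difference 1.15, SE 0.72), and Cdh5 differed by 0.37 (SE 1.00). Such markers can vary together, so the 10 are not read as separate observations. The 8 markers of undifferentiated cells had means of 6.65, 6.08 and 6.54 in controls and 6.18, 7.11 and 7.10 in HOXB4 cells, with 6 differences above 0 and 2 below. Of these 8, Zfp42 (0.69, SE 0.23) and Utf1 (0.73, SE 0.29) were higher at an unadjusted p below 0.05 in limma, as were 2.23% of all genes. Their groups did not overlap, and neither passed over all genes. The 12 visceral and yolk sac endoderm markers stood at means of 4.66 to 4.83 in all arrays. The 6 neural markers stood at means of 5.39 to 5.64 in controls and 5.70 to 6.03 in HOXB4 cells. Among the neural markers Tubb3 differed by 1.95 (SE 0.62) and the others by -0.19 to 0.24, with a median of 0.06 over the 6. The part of these cell types in the differences of the imprinted genes was not tested.

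**Figure D4:**
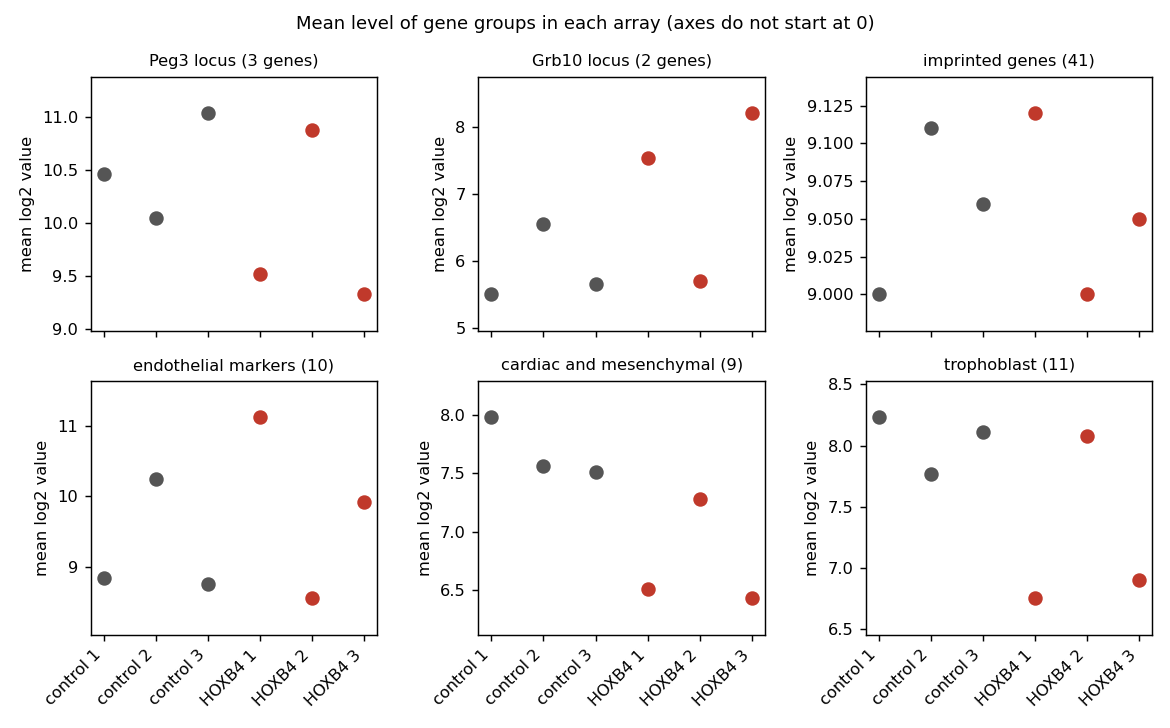
Mean log2 value (vertical axis) in each of the 6 arrays (horizontal axis; grey controls, red HOXB4) for the Peg3 locus, the Grb10 locus, all 41 imprinted genes and 3 lists of cell type markers. HOXB4 1 and 3 are low for the Peg3 locus, the cardiac and mesenchymal list and the trophoblast list, HOXB4 1, HOXB4 3 and control 2 are high for the Grb10 locus and the endothelial list, and the mean of all 41 stays between 9.0 and 9.12.

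Promoter windows of 300 bases (250 before and 50 after the annotated start, RefSeq, GRCm38.p6) were available for 36 of the 41 genes, 55 windows in all because some genes have several starts. These windows held a median of 17 CG dinucleotides, against 7 over all 32851 windows. The hexamer TGCCGC, which ZFP57 binds when its CG is methylated, occurred on either strand in 13 of the 55 windows (23.6%), against 11.6% of all windows. Among the genes with the larger differences it was in windows of Grb10 and Zim1. The octamer TGATNNAT, bound by HOX proteins together with PBX, occurred on either strand in 1 of the 55 windows (1.82%), that of Casd1, against 8.85% of all windows. These motifs and the members' windows were chosen with the values known, and a match describes letters in the window and not binding. The comparison was not matched for CG content, and some genes count with several windows, so the shares are not read as a trait of imprinted genes.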

How the data were processed

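RNA from 6 samples was hybridised to 1 array each. Per the labels' protocols it was purified by Trizol and column, and cDNA was labelled with Affymetrix's WT PLUS reagents. Deposited values are log2 summaries, made by the authors with Affymetrix Expression Console and RMA, per the submitters' processing notes; the sources used here give no versions or settings. RMA equalises arrays, which would partly remove a shift of most genes.

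Of 65956 features that were not controls, 31258 named 1 gene, 1492 several and 33206 none, with symbols updated through a RefSeq table of GRCm38.p6. HOXB4 minus control was fitted over 30701 genes by lmFit and eBayes of limma (version 3.58.1, under R 4.3.3), with two-sided p adjusted by Benjamini-Hochberg and no replicate block. The same fit was also run on data simulated from the means and SDs of these arrays, and its outcome is not given here. SE is the moderated standard error. Plots used Python 3.11.15 and matplotlib 3.10.9. Members, loci, lists and motifs were chosen with earlier results of these data known. By rule, values in every array were printed for the 20 members with the lowest unadjusted p and for 4 loci, and the 4 genes of each companion list with the lowest p were named.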

Additional observations from a re-analysis of the deposited data

How the results depend on the processing

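Of the 41 imprinted genes, 26 kept the sign of their difference in all 14 alternatives and 37 in those that used 6 arrays. Leaving out 1 array in turn gave 0 to 46 genes called and 0 to 2 imprinted genes called, the upper values both without HOXB4 2, and a median difference of -0.004 to 0.079. That median was 0.057 with dim features left out and 0.057 with arrays centred on the median gene, against 0.036. Array weights turned Slc22a18 to 0.01 and Mkrn3 to 0.04, centring turned Tssc4 to 0.01 and Nnat to 0.01, and cyclic loess turned Nnat to 0.03 and Mkrn3 to 0.01. Over the fits without 1 array, genes that turned sign ranged from -0.25 to 0.59 for Igf2, -0.11 to 0.06 for Slc22a18, -0.05 to 0.03 for Tssc4, -0.09 to 0.23 for Peg10, -0.11 to 0.13 for Mkrn3, -0.09 to 0.21 for Kcnq1ot1, -0.33 to 0.07 for Sgce, -0.12 to 0.15 for Ascl2, -0.01 to 0.10 for Nap1l4, -0.06 to 0.16 for Dio3, -0.06 to 0.67 for Casd1, -0.01 to 0.54 for Copg2, -0.04 to 0.10 for Inpp5f, -0.003 to 0.02 for Plagl1 and -0.06 to 0.05 for Nnat. The cause was not tested. Same-numbered replicates did not deviate together (correlations -0.402, -0.594 and -0.347), and the fit with the replicate number as a block called 0 genes and 0 imprinted genes. The filter on dim features kept 34 of the imprinted genes.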
